A study of Mus musculus with 15 samples.

Results

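The genes described here are 38 genes of DNA replication and homologous repair, picked by name from the 46679 genes of the deposited tables. They comprise 6 genes of the replicative helicase, 4 of origin licensing, 4 of helicase activation, 4 of the polymerases and primase, 7 of the sliding clamp, its loader and the lagging strand, 4 of nucleotide supply, 6 of homologous and crosslink repair and 3 checkpoint kinases. The choice set no threshold on a measured value, and all 38 passed the filter on low counts. RNA came from naïve brain of C57BL/6 mice and from tumors of 4 syngeneic glioma lines, with 3 mice in each of the 5 groups. The mice were 6 to 8 weeks old when the cells were placed in the right hemisphere, and the tumors were taken at the humane end-point after perfusion with PBS.

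CT2A (p53 wild type) and GL261 (mutant in K-ras and p53) were induced chemically with methylcholanthrene. The 005 line arose from activation of H-ras and AKT in p53+/- mice, and Mut3 arose from inactivation of NF1 and p53. All 4 lines carry a GFP and firefly luciferase reporter. The dose was 500000 cells for Mut3 and 100000 for the other lines. Each tumor group is a single line in several mice, so the spread between mice does not cover the spread between independent tumors, and for Mut3 the line and the cell dose cannot be told apart.

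Before a cell copies its genome, ORC, CDC6 and CDT1 load the MCM helicase onto origins, and CDC45 and the GINS complex then switch it on. Polymerases held by the PCNA clamp copy the strands, ribonucleotide reductase and thymidylate synthase supply the nucleotides, and BRCA and Fanconi proteins repair forks that break or stall. Most of these genes are transcribed late in G1 and in S phase under E2F factors, so their RNA is low in resting tissue such as adult brain and high where cells divide.

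In bulk tissue, fewer cells of a type and less RNA per cell cannot be told apart. Total counts ran from 3105119 to 13130158 per library, with naïve brain the shallowest, and between 11 and 13 of the 38 genes had under 10 counts in each naïve brain. The floor of 3 counts was between 0.228 and 0.966 CPM (a count divided by its library's total, at a common scale), for counting error only. The mitochondrial share was 14.97% to 23.97% for the naïve brains, 17.8% for 005 replicate 3 and 3.48% to 11.3% for the other tumors, and its part in the results was not tested. A pair of tumors stood apart from their groups. The 005 tumor of replicate 3 was the lowest of its group for 35 of the 38 genes, at a median of 0.305 times the mean of the other 005 tumors, and its 10 neuron markers summed to 3985 normalised CPM against 666.3 and 213.2 in the other 005 tumors and 4547 to 6740 in naïve brain. The Mut3 tumor of replicate 2 was the lowest of its group for 32 of the 38 genes, at a median of 0.488 times the others, with a neuron sum of 147.8 CPM against 49.0 and 129.4. Some results are therefore also given without these tumors. For most single genes the values are given with all libraries only.

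Against naïve brain, each gene was tested with edgeR's quasi-likelihood test over 17481 genes, and a call needed a Benjamini-Hochberg adjusted p below 0.05 together with a log2 fold change of 1 or more in size. Of the 38 genes, 33 rose in Mut3, 30 in CT2A, 28 in GL261 and 24 in 005. Over all tested genes the calls upward made up 19% for CT2A, 14.6% for GL261, 11.6% for 005 and 17.9% for Mut3. Fancd2 was the sole gene of the 38 to fall, in CT2A and in Mut3, where 20.2% and 19.8% of all genes fell. In GL261 and 005 none of the 38 was called lower, against 7.77% and 1.05% of all genes, with Fancd2 (-1.14 and -0.66) the lowest. The median log2 fold change of the 38 genes was 3.33 for CT2A, 2.56 for GL261, 2.17 for 005 and 3.04 for Mut3, and that of all genes lay between -0.08 and 0.11. These 4 comparisons share the same naïve brains. The plot of fold changes by role shows that the genes did not move by one amount: those of the helicase and of nucleotide supply lie far to the right in every line, whereas Pola1, Pole, Rfc5 and Fancd2 stay near or left of 0.

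**Figure D1:**
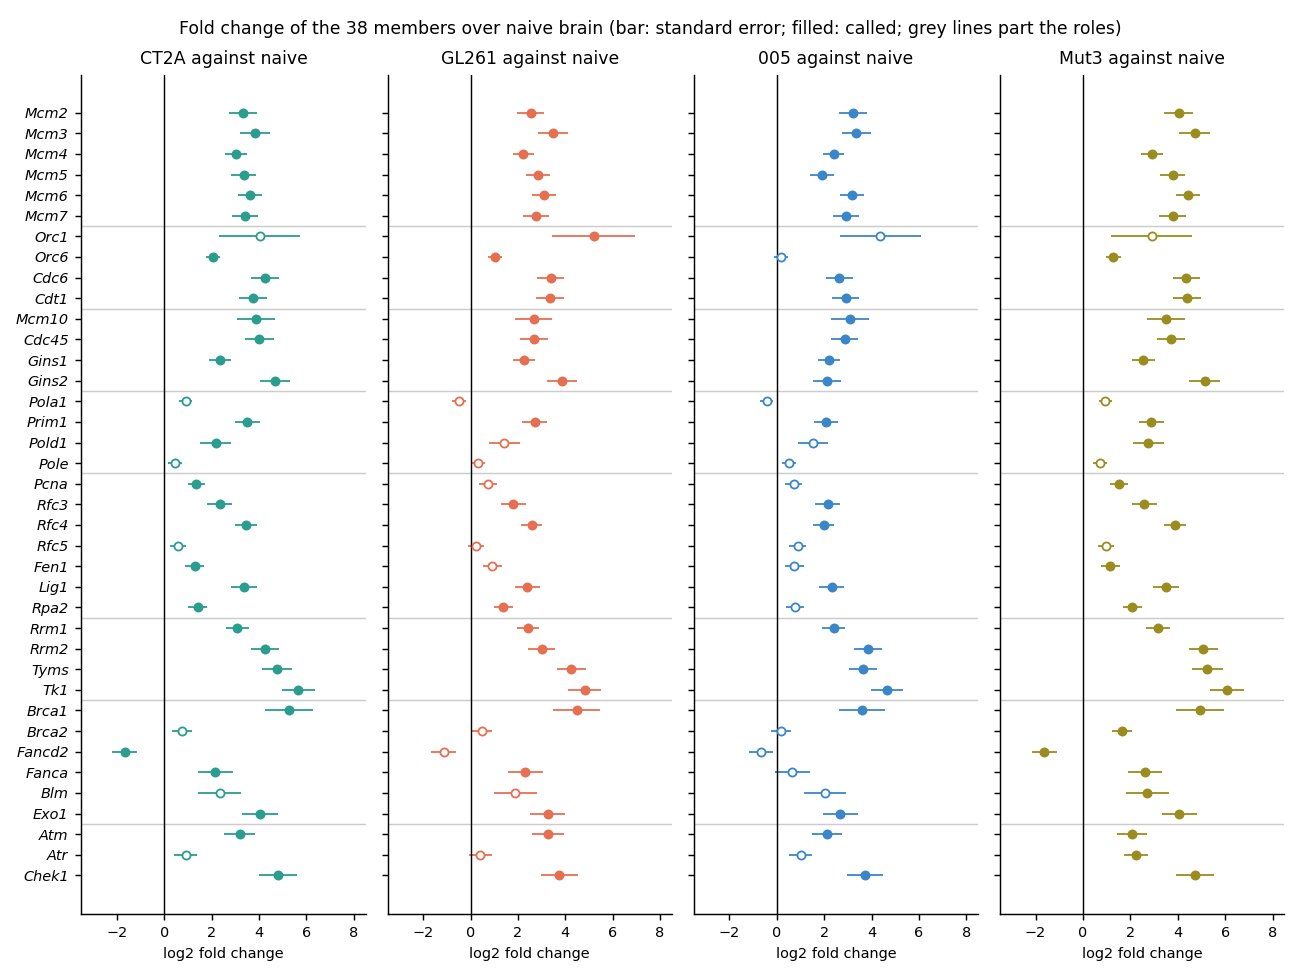
Log2 fold change over naïve brain of the 38 genes (rows, grouped by role) in CT2A, GL261, 005 and Mut3 (panels), with the standard error as a bar and filled points for called genes. Tk1 was the furthest to the right in CT2A, 005 and Mut3 (5.66, 4.65 and 6.09) and Orc1, with its wide bar, in GL261 (5.19).

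The gain was shared by 24 genes, which were called up in all 4 lines, as were 5.23% of all tested genes. Orc6, Rpa2 and Fanca rose in 3 lines, Pold1, Pcna and Fen1 in 2, and Orc1, Brca2, Blm and Atr in 1. Of the 24, 15 were called in all 4 lines whichever library was left out: Mcm2, Mcm3, Mcm4, Mcm6, Mcm7, Cdc6, Cdt1, Cdc45, Gins1, Rfc4, Rrm1, Rrm2, Tyms, Tk1 and Chek1. Every tumor lay above every naïve brain for 36 of the 38 genes in CT2A (27.7% of all tested genes), 31 in GL261 (23.7%), 20 in 005 (16.8%) and 37 in Mut3 (27.4%). That layout depends on the scale: in TPM it held for 28 genes for CT2A (13.8%), 28 for GL261 (13.2%), 14 for 005 (10.2%) and 27 for Mut3 (12.5%). Without 005 replicate 3, 30 genes rose in 005, with Orc1, Pold1, Rfc5, Fen1, Rpa2 and Blm added, and Fancd2 fell. In that fit 32 rose in CT2A, with Orc1 and Blm added. Without Mut3 replicate 2 as well, 35 rose in Mut3 (Pole and Rfc5 added) and 33 in CT2A (Orc1, Pola1 and Blm added). The counts were then 32 in 005 and 29 in GL261, where Pold1 was added. With 005 and naïve brain fitted alone, 4 genes were called. The share of all genes called was not computed for any of these fits.

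Beside this, the markers of other cell types were examined. All 10 neuron markers were called lower in CT2A and in Mut3. By edgeR none was called in GL261 or 005, where 9 and 4 had an unadjusted p under 0.05. They summed to 245.9 to 1190 CPM in CT2A, 49.0 to 147.8 in Mut3, 848.3 to 1943 in GL261 and 213.2 to 3985 in 005. Of the 8 leukocyte markers, 7 were called higher in CT2A, GL261 and 005 each. None was called higher in Mut3, where 2 had an unadjusted p under 0.05, and Coro1a was called lower in CT2A and Mut3. They summed to 160.2 to 232.2 CPM in naïve brain, 752.1 to 1034 in CT2A, 126.5 to 379 in Mut3, 1191 to 2150 in GL261 and 958.8 to 3518 in 005. The sums of the oligodendrocyte markers (1713 to 4365 CPM in naïve brain, 312.9 to 526.1 in Mut3), astrocyte markers (1150 to 1631 and 214.9 to 519.7) and microglia markers (188.9 to 226.9 and 64.7 to 93.3) were also lower in Mut3, with 6 of 8, 3 of 6 and 4 of 6 markers called lower. The CT2A sums were below all naïve brains too, at 225.4 to 1260, 276.7 to 499.1 and 142.1 to 160.7 CPM. In GL261 only the astrocyte sum was (569.1 to 915), and in 005 none was. No marker of the neuron or leukocyte list was at 0 in all naïve brains. The part of these cells in the results on the 38 genes was not tested.

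What the genes share in sequence was read from RefSeq promoter windows (GRCm38.p6) that reach from 250 bases before to 50 bases after a start site. A window was at hand for 32 of the 38 genes. The octamers TTTCCCGC, TTTCGCGC, TTTGGCGC and TTTGCCGC, forms of the site that E2F factors bind, were searched on both strands, and matches may overlap each other. At least 1 was found in 12 of the 32 genes (37.5%), against 704 of all 27025 genes with a window (2.6%). The share was similar in a list of other replication genes, at 11 of 32 (34.4%). In a list of other homologous repair genes it was 5 of 26 (19.2%). The CHR element TTTGAA, known from the promoters of mitosis genes, was in 3 of the 32 genes (9.38%), in 16 of 23 genes of mitosis (69.6%) and in 20.2% of all genes. An E2F octamer was in 1 of those 23 mitosis genes (4.35%). The motif CCAAT, also searched, was in 62.5% of the 32 genes, 73.9% of the mitosis genes and 41.1% of all genes. Stretches of 50 bases follow with the octamers in capitals, 5′ to 3′ on the gene's strand, all before the RefSeq start and outside annotated exons, with that of Cdc6 inside the span GENCODE gives the gene. They show helicase and licensing genes that rose in all 4 lines (Mcm5, Mcm6, Cdc6) beside Brca2, which rose in Mut3 alone, and Pola1, which was called in none.
Mcm5, chr8:75109340-75109389, plus strand: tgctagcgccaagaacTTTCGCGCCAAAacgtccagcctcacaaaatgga
Mcm6, chr1:128359723-128359772, minus strand: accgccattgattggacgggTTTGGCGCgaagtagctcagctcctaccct
Cdc6, chr11:98907993-98908042, plus strand: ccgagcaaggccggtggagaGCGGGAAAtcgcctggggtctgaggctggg
Pola1, chrX:93632264-93632313, minus strand: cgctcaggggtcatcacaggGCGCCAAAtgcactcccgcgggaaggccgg
Brca2, chr5:150522433-150522482, plus strand: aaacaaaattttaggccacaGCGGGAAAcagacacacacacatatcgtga
In Mcm5 the capitals are 2 octamers that overlap. An octamer stood in 8 of 20 genes called in all 4 lines and in 4 of the other 12, and a match is a string of letters and not a measured site.

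**Figure D2:**
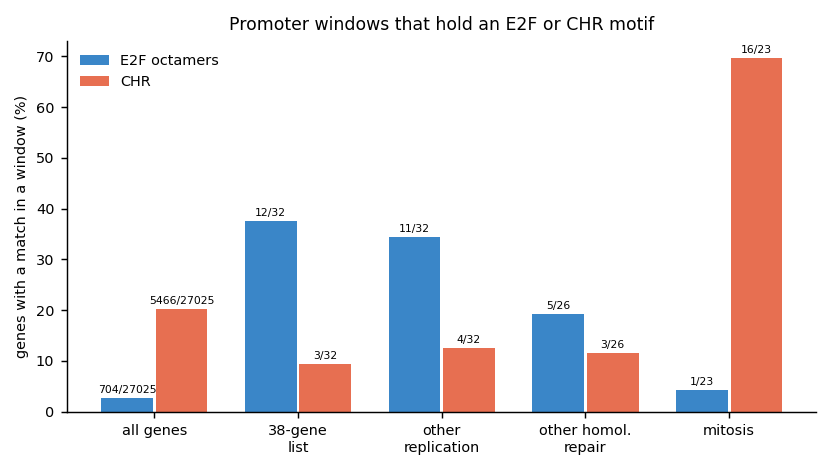
Share of genes (y axis, %) with at least 1 match to the E2F octamers or to the CHR element in a RefSeq promoter window, for all genes and for 4 lists, with the number of genes above each bar. The 38-gene list stands at 37.5% for E2F and 9.38% for CHR, and the mitosis genes at 4.35% and 69.6%. Other replication genes stand at 34.4% and 12.5%, and other homologous repair genes at 19.2% and 11.5%.

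The MCM genes encode the ring that unwinds DNA ahead of the polymerases, and all 6 rose in all 4 lines. Mcm6 (chromosome 1, 128331590 to 128359664 on GRCm38) stood at 5.51, 4.48 and 4.60 CPM in the naïve brains. It measured 54.7, 61.6 and 63.7 CPM in CT2A, 42.7, 37.0 and 46 in GL261, 59.6, 59.8 and 13.6 in 005 and 125, 61.0 and 132.5 in Mut3. No tumor overlapped the naïve brains, and the outlying 005 tumor was the lowest tumor of all. The log2 fold change (± SE) was 4.44 ± 0.51 in Mut3, 3.62 ± 0.50 in CT2A, 3.18 ± 0.49 in 005 and 3.10 ± 0.49 in GL261 (adjusted p from 0.000124 to 0.00186). Over the 6 genes and 4 lines the log2 fold changes ran from 1.92 (Mcm5 in 005) to 4.72 (Mcm3 in Mut3).

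Mcm5 did not keep pace with its partners in 005. It measured 4.28, 5.23 and 4.60 CPM in naïve brain, 42.4, 38.7 and 62.4 in CT2A, 43.9, 26.7 and 30.1 in GL261, 20.3, 26.9 and 6.27 in 005 and 76.5, 33.5 and 84.5 in Mut3. Within each library, the count of Mcm5 was 0.340 to 0.462 times that of Mcm6 in 005, 0.549 to 0.638 in Mut3, 0.655 to 1.03 in GL261 and 0.627 to 0.979 in CT2A, so the 005 range lay below those of the other lines and below that of naïve brain (0.786 to 1.14). These ratios are descriptions without a test. The log2 difference of Mcm5 between 005 and Mut3 was -1.87 ± 0.47 (adjusted p = 0.0142).

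Levels can be set between the MCM genes only per length. In TPM, which divides by gene length, Mcm7 was the highest of the 6 in every group, with a mean of 6.66 ± 3.96 (SD, n = 3) in naïve brain, 24.2 ± 4.25 in GL261, 27.9 ± 14.7 in 005, 32.9 ± 6.74 in CT2A and 48.5 ± 20 in Mut3. The gene length implied by the deposited count and TPM was 27.5% of the longest Mcm7 transcript and 22.0% of that of Mcm3, and a short length raises TPM. Divided by the longest transcript instead, Mcm7 was still the highest, at 50.4 ± 20.6 counts per kilobase at the scale of CPM in Mut3.

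The licensing factors bring the helicase to origins. Cdc6 measured 1.02, 2.24 and 1.62 CPM in naïve brain, 20, 35.4 and 38.1 in CT2A, 13.9, 20 and 17.0 in GL261, 12.6, 13.4 and 4.42 in 005 and 41.3, 14 and 45.0 in Mut3. All tumors lay above all naïve brains, and the log2 fold change was largest in Mut3 (4.36 ± 0.58) and CT2A (4.26 ± 0.58). Cdt1, which loads the helicase with CDC6, rose by 2.91 to 4.40 on the log2 scale. Its naïve brain counts were 5.00, 3.82 and 2.90 reads, close to the floor.

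Orc6 was plentiful before any tumor was there. It stood at 72.4, 47.6 and 71.1 CPM in naïve brain and 211, 282 and 304 CPM in CT2A. It was at 142, 135 and 111 CPM in GL261, at 170, 101 and 195 in Mut3 and at 88.1, 70.7 and 55.7 in 005. The 005 tumors overlapped the naïve brains (log2 fold change 0.17 ± 0.30, adjusted p = 0.72), and CT2A lay above all other groups. In TPM the 005 tumors (8.79 to 10.8) lay below the naïve brains (12.26 to 14.31) and Mut3 (12.4 to 23.1) overlapped them. On that scale GL261 (14.32 to 16.9) lay barely above them. Orc6 rose by 2.06 ± 0.31 in CT2A, and the call in GL261 (1.02 ± 0.30) sat at the fold threshold. The GL261 call was lost with library size in place of TMM and in 6 of the 15 fits that left out 1 library.

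Orc1 gave the widest spread. Its level was 1.22, 0.249 and 0 CPM in naïve brain, 54.1, 2.26 and 4.12 in GL261 and 1.13, 32.7 and 0.285 in 005. In GL261 and in 005 1 mouse held nearly all of it, and that mouse had the highest leukocyte sum of its group (2150 and 3518 CPM). The part of leukocytes in this was not tested. CT2A measured 5.74, 6.68 and 14.2 CPM and Mut3 4.47, 1.76 and 5.89. Orc1 was called in GL261 (5.19 ± 1.73, adjusted p = 0.0431), a call lost in 10 of the 15 fits that left out 1 library, with GL261 replicate 1 among them, and Orc1 was not called among the 5 groups (adjusted p = 0.119). Without 005 replicate 3 it was also called in CT2A (3.97, adjusted p = 0.0396) and 005 (4.86, adjusted p = 0.0219).

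The 4 genes that activate the helicase rose in all lines. Gins2, a subunit of the GINS complex, measured 1.63, 6.23 and 1.62 CPM in naïve brain, 58.2, 109 and 76.9 in CT2A, 65.3, 33.0 and 39.3 in GL261, 13.4, 21.2 and 7.05 in 005 and 115, 53.2 and 164.6 in Mut3. The 005 tumors lay below every other tumor. Its log2 fold change was 2.13 ± 0.60 in 005, 3.86 ± 0.62 in GL261, 4.68 ± 0.64 in CT2A and 5.13 ± 0.65 in Mut3. Its call in 005 was lost in 4 of the 15 fits that left out 1 library. Its partner Gins1 rose by 2.19 ± 0.47 in 005, close to the 2.27 to 2.54 of the other lines. The ratio of Gins2 to Gins1 counts was 0.893, 1.13 and 1.48 in 005, between 2.75 and 9.59 in all other tumors, and 0.571, 3.56 and 0.462 in naïve brain, whose range holds the 005 values. The outlying 005 tumor thus had the highest of the 3 ratios in 005 and still lay below all tumors of the other lines. Gse1 overlaps 67.3% of the annotated exon bases of Gins2 on the opposite strand and is listed at 0.3 TPM or less in every library, and whether counting used strand is not given in the sources used here. Cdc45 and Mcm10, which join the helicase as it fires, rose by 2.67 to 4.02 and by 2.67 to 3.86.

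**Figure D3:**
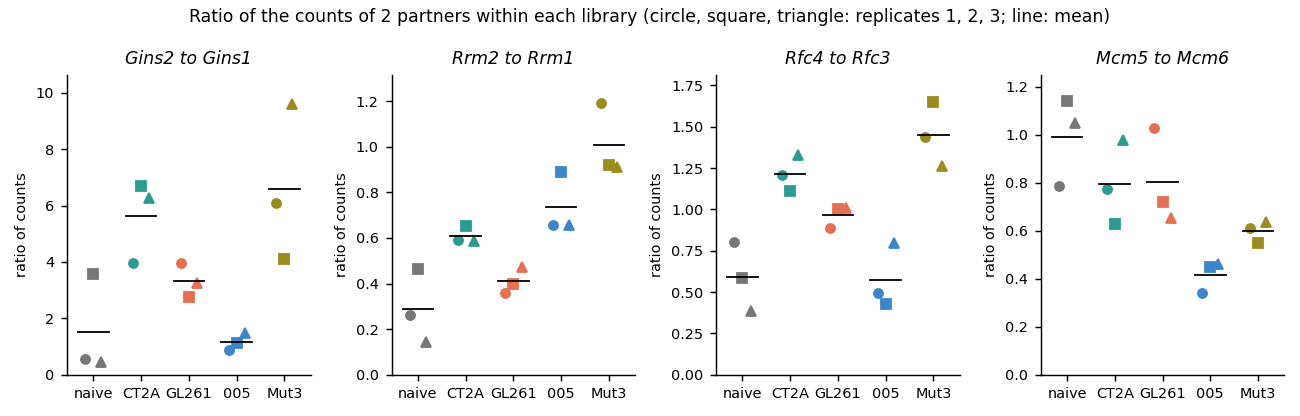
Ratio of the counts of paired genes within each library (y axis) for the 3 mice of each group, with the mean as a line. The 005 tumors lie below all other tumors for Gins2 to Gins1, Rfc4 to Rfc3 and Mcm5 to Mcm6, and Mut3 lies above all others for Rrm2 to Rrm1. The pairs shown are part of a larger set of ratios computed. Of the rest, Mcm5 to Mcm2, Mcm3 to Mcm2 and Mcm4 to Mcm6 also set a line apart from the other tumors. Cdc45 to Mcm10, Cdt1 to Cdc6, Tyms to Tk1, Brca2 to Brca1 and Pold1 to Pole did not.

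Of the polymerase genes, Prim1, the primase subunit that starts each strand, rose by 2.07 ± 0.52 in 005 to 3.51 ± 0.54 in CT2A. Pola1, the catalytic subunit that works beside primase, went another way. It stood at 95.5, 45.6 and 62.7 CPM in naïve brain, at 119, 116 and 147 in CT2A and at 112, 151 and 128 in Mut3. It was at 44.4, 51.7 and 49.0 CPM in GL261 and at 60.5, 44.3 and 46.6 in 005. In CPM, CT2A and Mut3 lay above every other library, while GL261 and 005 overlapped the naïve brains. In TPM the layout against naïve brain (20.5 to 35.8) was another: CT2A (21.85 to 27.99) and Mut3 (25.4 to 35.1) lay within it, and GL261 (8.46 to 13.0) and 005 (10.4 to 17.2) below it. On both scales CT2A and Mut3 were above GL261 and 005. Against naïve brain the log2 fold change was 0.90 ± 0.28 in CT2A and 0.94 ± 0.28 in Mut3 (adjusted p = 0.0193 and 0.0161, both short of the fold threshold), -0.49 ± 0.28 in GL261 and -0.43 ± 0.28 in 005 (adjusted p = 0.199 and 0.292). Pola1 is X-linked and had an implied length of 22.2% of its longest transcript.

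Pole, the leading strand polymerase, was at 20.3 to 25.9 CPM in naïve brain and 23.7 to 47.0 CPM in the tumors. With all libraries it was not called in any line (log2 fold changes 0.32 to 0.70). Without 005 replicate 3 and Mut3 replicate 2 it was called in Mut3. Pold1, the catalytic subunit of the polymerase of the lagging strand, stood at 1.02, 3.24 and 1.35 CPM in naïve brain and rose by 2.17 ± 0.65 in CT2A and by 2.76 ± 0.66 in Mut3. The CT2A call was lost in 3 of the 15 fits that left out 1 library, and in TPM both lines overlapped naïve brain. In GL261 and 005 the Pold1 log2 fold changes of 1.43 and 1.53 did not pass the test (adjusted p = 0.117 and 0.126). Without 005 replicate 3, Pold1 was called in 005 (1.91, adjusted p = 0.0173), and without Mut3 replicate 2 as well also in GL261.

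Pcna, the sliding clamp, was the most abundant of its group in reads. It measured 101, 69.2 and 148 CPM in naïve brain, 247, 269 and 297 in CT2A, 182, 180 and 164 in GL261, 223, 208 and 89.1 in 005 and 346, 185 and 375 in Mut3. It rose in CT2A (1.36 ± 0.37) and Mut3 (1.51 ± 0.38). The pseudogene Pcna-ps2 had at most 44.8 counts in a library.

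The clamp loader split among its subunits. Rfc4 stood at 11.8, 5.48 and 8.38 CPM in naïve brain, 81.8, 89.4 and 112 in CT2A, 59.9, 48.6 and 45.6 in GL261, 51.6, 34.8 and 15.2 in 005 and 139, 78.8 and 168 in Mut3. It was above naïve brain in every tumor, with log2 fold changes from 1.97 ± 0.43 in 005 to 3.90 ± 0.46 in Mut3. Rfc3 rose by 1.81 to 2.59, whereas Rfc5 had log2 fold changes of 0.23 to 0.98 and was called in no line by edgeR with all libraries. Without 005 replicate 3, Rfc5 was called in 005 (1.11, adjusted p = 0.0113), and without Mut3 replicate 2 as well also in Mut3. The count of Rfc4 was 0.431 to 0.798 times that of Rfc3 in 005, 0.887 to 1.01 in GL261, 1.11 to 1.33 in CT2A and 1.26 to 1.65 in Mut3. In naïve brain it was 0.386 to 0.802, a range that holds the 005 values. Rfc4 shares 12.7% of its exon bases with Eif4a2 and Rfc5 10.7% with Wsb2, each on the opposite strand. Both neighbours were lower in CT2A, GL261 and Mut3 than in the naïve brains in TPM.

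On the lagging strand, Lig1, the ligase that seals new fragments, rose by 2.31 ± 0.53 in 005 to 3.50 ± 0.55 in Mut3. Rpa2, a subunit of the protein that coats single strands, rose in CT2A, GL261 and Mut3 by 1.38 to 2.09, and in 005 was at 0.78 ± 0.39 (adjusted p = 0.184). Without 005 replicate 3 it was called in 005 (1.03, adjusted p = 0.0359). Of the 15 fits that left out 1 library, 4 lost the Rpa2 call in GL261 and 1 that in CT2A. Fen1, the flap nuclease, rose in CT2A (1.28 ± 0.40) and Mut3 (1.16 ± 0.39). Of its exon bases, 78.8% are shared with the antisense gene Gm10143, at 0.19 TPM or less in every library. A further 5.4% are shared with Tmem258 on the opposite strand. Tmem258 was at 279 to 338 TPM in naïve brain, 396 to 482 in CT2A, 554 to 667 in GL261, 332 to 421 in 005 and 472 to 538 in Mut3. The part of this overlap was not tested. The Fen1 calls were lost in 3 (CT2A) and 4 (Mut3) of those 15 fits. Without 005 replicate 3, Fen1 was also called in 005 (1.04, adjusted p = 0.0203).

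The genes of nucleotide supply had the highest median log2 fold change of the roles, at 4.5 for CT2A, 3.63 for GL261, 3.74 for 005 and 5.16 for Mut3. Tk1, the thymidine kinase of S phase, stood at 0.408, 1.25 and 1.89 CPM in naïve brain, from 2.10, 4.90 and 6.86 counts. It measured 51.7, 56.5 and 67.8 CPM in CT2A, 40.8, 29.7 and 27.1 in GL261, 41.0, 40.1 and 6.27 in 005 and 105, 50.0 and 81.0 in Mut3. Every tumor lay above the naïve brains, with 005 replicate 3 (6.27) nearer to them than to the other 005 tumors. The fitted rise was 5.66 ± 0.71, 4.81 ± 0.69, 4.65 ± 0.69 and 6.09 ± 0.72 in that order of lines. Tyms, the thymidylate synthase, rose by 3.63 to 5.25.

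Rrm2, the small and cell cycle limited subunit of ribonucleotide reductase, measured 4.69, 6.73 and 2.97 CPM in naïve brain, 79.3, 93.0 and 100 in CT2A, 37.7, 37.5 and 40.9 in GL261, 94.5, 99.1 and 16.5 in 005 and 244, 97.0 and 149 in Mut3. GL261 lay below all tumors but the outlying 005 one. The count of Rrm2 was 0.359 to 0.472 times that of the large subunit Rrm1 in GL261, 0.585 to 0.653 in CT2A, 0.657 to 0.891 in 005 and 0.913 to 1.19 in Mut3, ranges that did not overlap. In naïve brain it was 0.142 to 0.464. Rrm1 itself rose by 2.4 to 3.16.

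**Figure D4:**
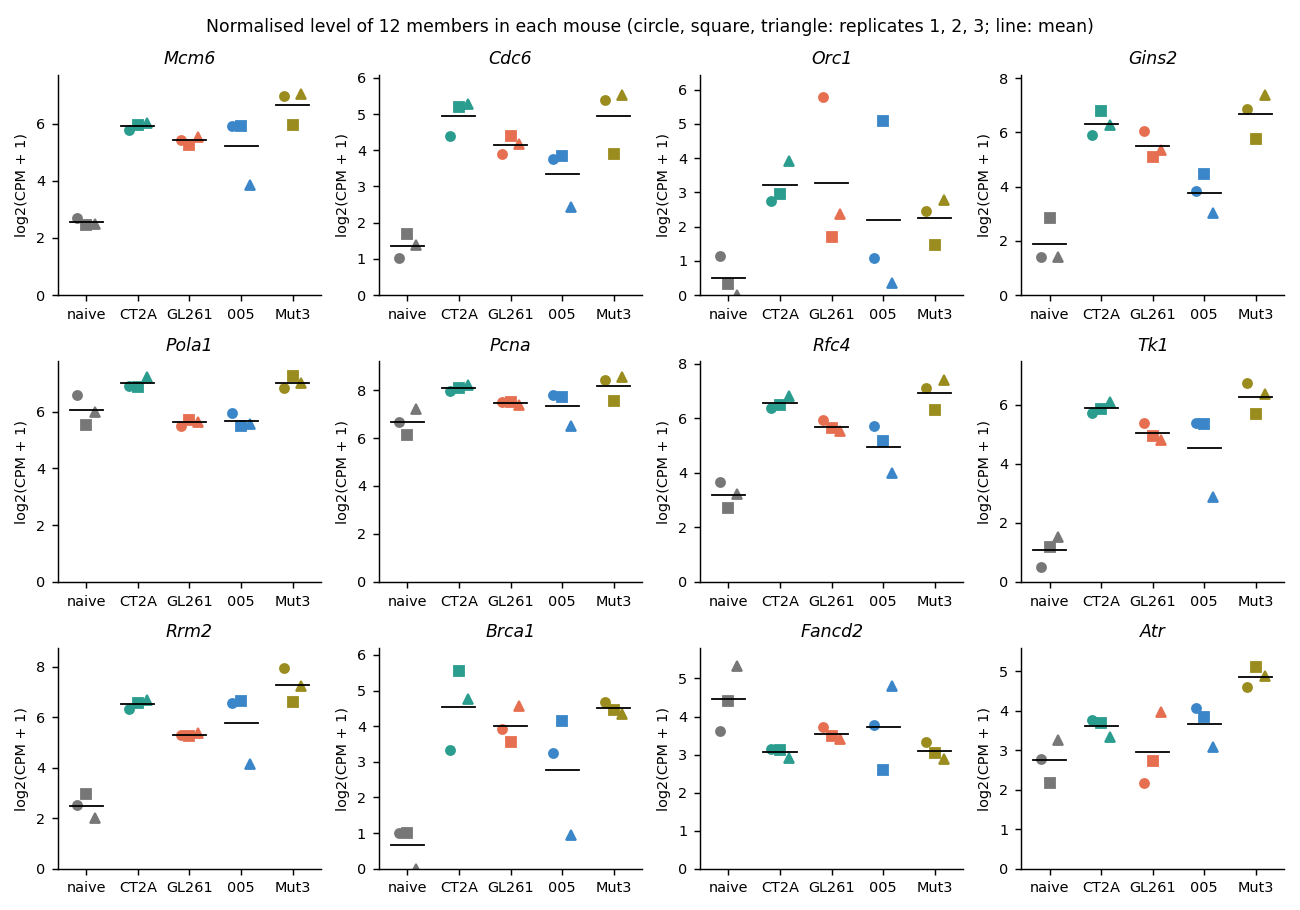
Level of 12 of the genes in each of the 15 libraries, as log2(CPM + 1) on the y axis, with the mean of 3 mice as a line. Most panels rise from naïve brain to all tumors with 005 replicate 3 (blue triangle) low, whereas Pola1 splits CT2A and Mut3 from the rest, Orc1 rests on single mice and Fancd2 is highest in naïve brain.

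Among the repair genes, Brca1, which channels breaks into homologous repair, was at 1.02, 0.996 and 0 CPM in naïve brain, 9.04, 46.1 and 26.2 in CT2A, 14.1, 10.7 and 22.8 in GL261, 8.45, 16.8 and 0.926 in 005 and 24.7, 21.0 and 19.4 in Mut3. Save for the outlying 005 tumor, all tumors lay above the naïve brains, and Brca1 rose by 3.6 ± 0.99 in 005 to 5.25 ± 1.01 in CT2A. Its naïve brain counts were 5.20, 3.67 and 0 reads, close to or below the floor. Exo1, which resects broken ends, rose by 2.69 to 4.06. In 005 the calls of Brca1 and Exo1 were each lost in 5 of the 15 fits that left out 1 library.

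Brca2, which acts in homologous repair of breaks, was at 7.96, 4.73 and 10.8 CPM in naïve brain and at 25.6, 24.2 and 23.9 in Mut3. It measured 12.7, 9 and 18.1 CPM in CT2A, 9.12, 7.76 and 15.8 in GL261 and 13.1, 7.61 and 5.77 in 005, ranges that overlap naïve brain. It rose in Mut3 by 1.65 ± 0.43 (adjusted p = 0.00751), also with any 1 library left out, and was at 0.17 to 0.76 in the other lines. Blm, a helicase of recombination intermediates, was called in Mut3 (2.72 ± 0.91), a call lost without naïve replicate 1 or 3 or Mut3 replicate 1. Without 005 replicate 3 it was also called in CT2A (2.3, adjusted p = 0.0189) and 005 (2.48, adjusted p = 0.0212). Fanca, of the Fanconi core complex, rose in CT2A, GL261 and Mut3 by 2.16 to 2.62 from 8.85, 0.89 and 1.54 counts in the naïve brains. It shares 10.5% of its exon bases with Zfp276. Its calls in CT2A and GL261 were lost without naïve replicate 2 or 3, and also without CT2A replicate 2 and GL261 replicate 1 or 3 respectively.

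Fancd2, the protein that the Fanconi core complex marks at crosslinks, ran against the list. It stood at 11.2, 20.2 and 39.2 CPM in naïve brain, 7.82, 7.76 and 6.46 in CT2A, 12.2, 10.2 and 9.58 in GL261, 12.7, 5.07 and 26.7 in 005 and 9.06, 7.30 and 6.33 in Mut3. The outlying 005 tumor, with its high neuron markers, lay between the naïve brains, and GL261 replicate 1 and 005 replicate 1 were just above the lowest of them. The log2 fold change was -1.67 ± 0.53 in CT2A and -1.63 ± 0.53 in Mut3 (adjusted p = 0.0213 and 0.0237), -1.14 ± 0.52 in GL261 and -0.66 ± 0.51 in 005. Without 005 replicate 3 it was also called in 005 (-1.46, adjusted p = 0.0312) and GL261 (-1.22, adjusted p = 0.0423). Those added calls were absent again without Mut3 replicate 2 as well. With all libraries but naïve replicate 3, neither the CT2A call nor the Mut3 call remained. The CT2A call was also lost without naïve replicate 2 or CT2A replicate 2 or 3, and the Mut3 call without Mut3 replicate 2 or 3. Over the 12 tumors Fancd2 was correlated with the mean of the other 37 genes at r = -0.807, or -0.46 without 005 replicate 3, as a description. The part of neuronal tissue in these values was not tested.

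Of the checkpoint kinases, Chek1, which holds the cycle when forks stall, rose by 3.73 to 4.8 from 0.816, 2.24 and 0.27 CPM in naïve brain. Its naïve brain counts were 3.73, 9.08 and 0.533 reads, the last below the floor. The outlying 005 tumor (14.7 CPM) lay between the other 005 tumors (16.1 and 14), while Mut3 replicate 2 (5.29) lay far below the other Mut3 tumors (45.1 and 38.5). Atm, the kinase of broken ends, rose by 2.06 to 3.26, with its highest tumor in GL261 (29.6, 17.5 and 60.4 CPM) and naïve brain at 7.34, 2.49 and 1.08. Of the 15 fits that left out 1 library, 5 lost the Atm call in 005 and 3 that in Mut3. In TPM only CT2A and GL261 lay wholly above naïve brain for Atm. Atr, the kinase of stalled forks, was at 5.92, 3.49 and 8.65 CPM in naïve brain and at 23.2, 33.7 and 28.2 in Mut3, with all other tumors between 3.52 and 15.7. It rose in Mut3 by 2.24 ± 0.50 (adjusted p = 0.00333), a call that held whichever library was left out.

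Between the tumor lines fewer of the genes differed. Any difference among the 5 groups was called for 33 of the 38 genes, against 52.1% of all genes, and not for Orc1, Pole, Rfc5, Fen1 and Blm. That test counts naïve brain as a group, so it is not a result between the tumor lines alone. CT2A against GL261 gave 2 genes, Orc6 and Pola1, both higher in CT2A, where 4.15% of all genes were higher and 3.62% lower. CT2A against 005 gave 3, Orc6, Gins2 and Pola1, also higher in CT2A, where 2.12% of all genes were higher and 1.99% lower. With 1 library left out, the first count was lowest (0) without GL261 replicate 1 and highest (4) without 005 replicate 3, and the second was 1 without CT2A replicate 2 or 3. CT2A against Mut3 gave 0 calls in edgeR and 1 in DESeq2 (Atr, higher in Mut3), with 3 genes at an unadjusted p under 0.05, beside 6.61% of all genes called higher and 6.15% lower. GL261 against 005 gave 0 calls in edgeR and 1 in DESeq2 (Gins2, higher in GL261), also with 3 genes at an unadjusted p under 0.05, beside 1.73% of all genes higher and 0.887% lower.

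GL261 was lower than Mut3 for 5 genes (Mcm6, Pola1, Rfc4, Rrm2 and Atr) and 005 for 10 (Mcm5, Orc6, Cdc6, Cdt1, Gins2, Pola1, Rfc4, Rpa2, Tyms and Brca2), where 6.1% and 5.76% of all genes were lower and 11.1% and 14% higher. The largest differences were Rrm2 in GL261 (-2.08 ± 0.53, adjusted p = 0.0164) and Gins2 in 005 (-3.00 ± 0.57, adjusted p = 0.0036). Without 005 replicate 3 the counts were 16 and 6, and without Mut3 replicate 2 as well they were 24 and 15. No share of all genes called was computed for these fits. GL261 against Mut3 fell to 1 gene without GL261 replicate 1 or 2 or Mut3 replicate 1 to 2 without Mut3 replicate 3 and to 3 without naïve replicate 3 or CT2A replicate 2 or 3, and 005 against Mut3 to 3 without Mut3 replicate 1 or 3. In these comparisons all 10 neuron markers and all 8 leukocyte markers were called higher in GL261 and in 005 than in Mut3, and their part in the differences was not tested.

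CT2A and Mut3 together were higher than GL261 and 005 together for 10 genes (Mcm5, Orc6, Cdc6, Cdc45, Gins2, Pola1, Rfc4, Lig1, Rrm2 and Tk1), where 4.29% of all genes were higher and 12.6% lower. Gins2 differed by 1.91 ± 0.39 (adjusted p = 0.00507), Rfc4 by 1.40 ± 0.29 and Pola1 by 1.38 ± 0.20 (adjusted p = 0.000944). All 10 neuron and all 8 leukocyte markers were called lower on the CT2A and Mut3 side, and their part was not tested. The count was 7 without 005 replicate 3 and 12 without Mut3 replicate 2 as well. It was 3 to 6 without Mut3 replicate 1 or 3, CT2A replicate 2 or 3 or GL261 replicate 1 or 2. Mut3 against the mean of the other lines gave 8 genes (Mcm5, Mcm6, Cdt1, Gins2, Rfc4, Rrm2, Brca2 and Atr), where 8.11% of all genes were higher and 12.3% lower. That count was 1 without Mut3 replicate 1 and 0 without Mut3 replicate 3, and 5 without CT2A replicate 2 or GL261 replicate 1.

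With the mean log2 CPM of 28 mitosis genes of each tumor as a covariate, the 10 genes that parted CT2A and Mut3 from GL261 and 005 came down to 2, Gins2 (1.44, adjusted p = 0.00757) and Pola1 (1.39, adjusted p = 0.000813), beside 4.29% of all genes called higher in the same fit. The other 8 had smaller differences than without the covariate, from 0.48 for Cdc45 to 0.99 for Rfc4, and Rfc4, Orc6 and Rrm2 (0.66) still had an adjusted p under 0.05. Mut3 against the other lines came down to Gins2, Brca2 and Atr (1.25, 1.09 and 1.41), beside 10.5% of all genes. There Mcm5, Mcm6, Cdt1, Rfc4 and Rrm2 fell short of the fold threshold, from 0.69 for Cdt1 to 0.98 for Rrm2. Each of them still had an adjusted p under 0.05. Of the 10 genes lower in 005 than in Mut3, Mcm5, Gins2, Pola1 and Rfc4 were still called, beside 7.64% of all genes called lower. Of the rest, Orc6 (-0.86) and Tyms (-0.91) still had an adjusted p under 0.05, and Cdc6, Cdt1, Rpa2 and Brca2 did not. GL261 against Mut3 kept Pola1, Rrm2 and Atr and gained Orc1 and Atm, both higher in GL261, beside 8.57% of all genes called lower and 12.4% higher. Its lost genes, Mcm6 (-0.86, adjusted p = 0.0135) and Rfc4 (-0.98, adjusted p = 0.0178), fell short of the fold threshold only. CT2A against 005 gave 3 genes as before, with no share of all genes computed for it. The mitosis mean was 3.1 in 005 replicate 3 and 5.45 to 6.57 in the other tumors, so that tumor weighs heavily on the covariate. The covariate fit was not repeated without it. These counts therefore cannot show whether the same genes would be lost among the other tumors.

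The mean log2 CPM of the 38 genes minus that of the mitosis genes was 0.83 ± 0.19 (SD, n = 3) in naïve brain and below 0 in CT2A (-0.89 ± 0.17), GL261 (-0.86 ± 0.04) and Mut3 (-0.78 ± 0.09). In 005 it was -1.21, -1.24 and 0.00, the last in replicate 3, which lay between the naïve brains and the other tumors. All 28 mitosis genes rose in CT2A and Mut3 and 27 in GL261 and 005, with median log2 fold changes of 4.28 to 4.88. The greatest in Mut3 were Nusap1 (6.93 ± 0.82), Mki67 (6.54 ± 0.77) and Cenpf (6.50 ± 0.83), and the lowest were Kif20a (2.30 ± 0.41), Ttk (2.86 ± 0.63) and Mad2l1 (2.94 ± 0.58).

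**Figure D5:**
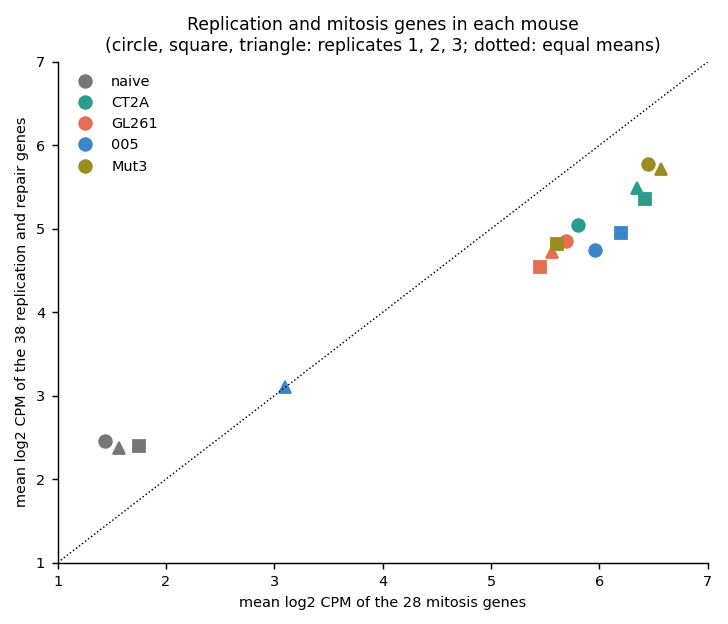
Mean log2 CPM of the 38 genes (y axis) against that of the 28 mitosis genes (x axis) for each library, with equal means as a dotted line. The naïve brains lie above the line, 005 replicate 3 (blue triangle) on it and the other 11 tumors below it.

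Of 38 other replication genes, 25 rose in Mut3, 28 in CT2A, 14 in GL261 and 13 in 005, and none fell. Over all tested genes 17.9%, 19%, 14.6% and 11.6% rose in that order of lines. In Mut3 the largest rises were in Clspn (5.64 ± 0.79), which relays the checkpoint signal, Uhrf1 (5.38 ± 0.67), which carries methylation onto new strands, and Chaf1b (4.62 ± 0.90), which assembles new chromatin. The lowest were Orc4 (-0.38), Wdhd1 (-0.36) and Pold4 (0.32), none of them called. Of 37 other genes of homologous repair, 35 were tested, and 15 rose in Mut3, 13 in CT2A, 10 in GL261 and 9 in 005. In GL261 2 fell (Rmi2 and Atrip), where 7.77% of all genes fell. Rad54l (5.88 ± 0.90), Rad54b (5.72 ± 0.91) and Gen1 (5.49 ± 1.08) led in Mut3, and Nbn (-0.43), Slx4 (-0.31) and Rad51c (-0.25) were lowest, none of them called.

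Among 16 regulators of the E2F and DREAM families, 8 rose in Mut3, 8 in CT2A, 6 in GL261 and 6 in 005, and none fell. The shares of all genes that rose were 17.9%, 19%, 14.6% and 11.6% in that order. E2f2 and E2f8 rose in all lines, by 4.88 ± 0.89 and 3.90 ± 0.81 in Mut3, as did Mybl2 (3.92 ± 0.74), which joins the complex that switches on mitosis genes. E2f1, an activator of S phase genes, rose in CT2A alone and was at -0.10 in Mut3 (adjusted p = 0.832). E2f6 and E2f4, which act as repressors, were at -0.39 and 0.31 in Mut3 and were called in no line.

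Over the 12 tumors, the genes outside the list whose log2 CPM was most like the mean of the 38 were Pclaf (r = 0.99), Srsf3 (0.97), Psmd13 (0.969), Kpna2 (0.968), Snrpe (0.962), Smc1a (0.959), Pole2 (0.959), Selenoh (0.954), Top2a (0.953) and Dctpp1 (0.953). Without 005 replicate 3 these ran from 0.858 to 0.971. Within the list, Lig1 (0.986), Tk1 (0.978), Pcna (0.966) and Tyms (0.966) were closest to the mean of the others, and Orc1 (0.489), Chek1 (0.469), Atr (0.396), Atm (0.349) and Fancd2 (-0.807) furthest from it. Without 005 replicate 3 these were 0.082, 0.657, 0.349, 0.058 and -0.46. These correlations are descriptions over tumors that differ in line, depth and tissue content.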

How the data were processed

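RNA from 15 mice was analysed in 5 groups of 3. The authors used STAR with GENCODE for alignment, Picard for duplicates and RNA-SeQC for quality metrics. Processing notes in the labels also name Salmon, DESeq2 1.18.1 and mm10. The deposited expected counts are estimates per gene without normalization between samples, and the deposited TPM values are scaled by the authors to gene length and to a fixed total. Count and TPM are not independent: over 4644 genes with more than 50 counts in all samples, their ratio was a gene factor times a sample factor (largest log2 residual 9.6e-10). The strand setting of the counting is not given in the sources used here.

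Sample labels gave the groups and replicate numbers. Of 46679 gene identifiers, 46201 matched GENCODE M21 (GRCm38), the source of symbols and positions. Rounded counts went into edgeR 4.0.16 under R 4.3.3 (filterByExpr, TMM, quasi-likelihood test, all 15 samples, 1 mean per group, no covariate), with Benjamini-Hochberg adjustment over 17481 genes and a log2 fold change of 1 or more in either direction for a call. Normalised CPM use the TMM library sizes, and log2 CPM a prior count of 2. Nothing in the labels or methods names a sequencing batch. The replicates are separate mice.

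The genes described and the other gene and marker lists were chosen with earlier results of these data known. All 38 genes are described. Of the other lists, counts are given with the 3 largest and the 3 lowest log2 fold changes in Mut3, and the 10 genes outside the list with the highest Pearson correlation to its mean were named. Promoter windows are from RefSeq (GRCm38.p6).

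Alternatives were DESeq2 1.42.0, scaling by library size, no filter, a minimum of 10 counts in all samples, the compared samples fitted alone, limma 3.58.1 on log2(TPM + 1), no fold threshold, the mitosis genes as a covariate, the replicate number as a block and each library left out. Leaving out 005 replicate 3 with Mut3 replicate 2 was added after the data were seen. The steps were tested on simulated data, in which many genes with a true change were not called, so a gene that was not called may have changed. Part of the description of the lines is not reported here.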

Additional observations from a re-analysis of the deposited data

Results flagged for a closer look

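Pola1, the catalytic subunit of the polymerase that works with primase, moved differently between lines relative to the same naïve brains. Relative to them it was at 0.90 (log2) in CT2A and 0.94 in Mut3, against -0.49 in GL261 and -0.43 in 005. The difference itself was tested with edgeR's quasi-likelihood test over all genes. It was 1.39 ± 0.28 (SE) for CT2A against GL261 (adjusted p = 0.00796), 1.33 ± 0.28 for CT2A against 005 (adjusted p = 0.0185), -1.43 ± 0.28 for GL261 against Mut3 (adjusted p = 0.00474) and -1.37 ± 0.28 for 005 against Mut3 (adjusted p = 0.00558). GL261 against Mut3 and 005 against Mut3 were called under all 25 alternatives (adjusted p up to 0.0323 and 0.0425). CT2A against GL261 was called under 24 of 25 and lost without GL261 replicate 1 (adjusted p = 0.0553). CT2A against 005 was called under 20 of 25 and lost with the compared samples alone, on log2(TPM + 1) and without CT2A replicate 2, CT2A replicate 3 or 005 replicate 2 (adjusted p from 0.0544 to 0.101). All 6 tumors of CT2A and Mut3 lay above all 6 of GL261 and 005. On log2(TPM + 1) the value of CT2A against naïve brain was -0.0187, so that direction depends on the unit. Groups of 3 mice are too small for the check of single outlying samples.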

How the results depend on the processing

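The naïve brains had the fewest counts, so genes low there limit what could be called, and with 3 mice per group 1 library often decides a call. Of the genes called against naïve brain, 26 of 31 in CT2A, 30 of 34 in Mut3, 22 of 28 in GL261 and 15 of 24 in 005 were called whichever library was left out. The rest were Pold1, Fen1, Rpa2, Fancd2 and Fanca in CT2A and Fen1, Fancd2, Blm and Atm in Mut3. In GL261 they were Orc1, Orc6, Mcm10, Rfc3, Rpa2 and Fanca. In 005 they were Mcm5, Mcm10, Gins2, Prim1, Rfc3, Lig1, Brca1, Exo1 and Atm. Requiring 10 counts in every sample left 22 of the 38 genes to test, of which 17, 13, 12 and 19 were called in CT2A, GL261, 005 and Mut3, and 19 among the 5 groups. The comparison of 005 with naïve brain gave 4 genes with the samples compared alone and 15 with limma on log2(TPM + 1). Save for the covariate fits given above, the share of all genes called was not computed under the alternatives. A change in a count may thus also reflect how many genes a fit called in all.

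Between lines the counts were small. CT2A against GL261 (2) gave 1 gene with library size, no filter, the replicate block, the mitosis covariate or TPM, and 5 with the compared samples alone or without both outlying tumors. CT2A against 005 (3) gave 0 with the compared samples alone and 7 in DESeq2. CT2A against Mut3 (0) gave 1 with the compared samples alone, the covariate or DESeq2, and 5 without both outlying tumors. GL261 against 005 (0) gave 1 with the covariate or DESeq2 and 2 without both. GL261 against Mut3 (5) gave 14 with the compared samples alone and 24 without both. 005 against Mut3 (10) gave 2 with the compared samples alone, 4 with the covariate and 6 on TPM. CT2A and Mut3 against GL261 and 005 (10) gave 2 with the covariate and 4 on TPM. Mut3 against the other lines (8) gave 3 with the covariate or on TPM and 16 without both outlying tumors.

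With 1 library left out, the counts ran from 0 to 4 for CT2A against GL261, 1 to 4 for CT2A against 005, 0 to 1 for CT2A against Mut3 and for GL261 against 005, 1 to 16 for GL261 against Mut3, 3 to 13 for 005 against Mut3, 3 to 15 for CT2A and Mut3 against GL261 and 005, and 0 to 11 for Mut3 against the others. Against naïve brain they ran from 27 to 33 for CT2A, 22 to 28 for GL261, 16 to 31 for 005 and 31 to 34 for Mut3, and from 29 to 36 among the 5 groups. The highest counts of GL261 against Mut3 (16) and of 005 against naïve brain (31) were those without 005 replicate 3. The mean of the 38 genes minus that of the mitosis genes was -0.22 in CT2A, -0.24 in GL261 and -0.11 in Mut3 on log2(TPM + 1).

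Over 190 results for single genes there were 4331 recomputed values, of which 17, from 14 results, had the other sign, none of them called before or after. On log2(TPM + 1) these were Pola1 (-0.0187), Pole (-0.4315), Rfc5 (-0.2801) and Brca2 (-0.105) in CT2A, Pole (-0.3915), Pcna (-0.0123), Rfc5 (-0.3914), Brca2 (-0.1652) and Atr (-0.1249) in GL261, Orc6 (-0.3962), Pole (-0.0973) and Brca2 (-0.251) in 005, and Pole (-0.122) in Mut3. With libraries left out, Atr in GL261 ran from -0.4553 (without GL261 replicate 3) to 0.8784. In 005, Orc6 ran from -0.0039 to 0.4403 and Brca2 from -0.2219 to 0.5285 (both lowest without replicate 1), and Fanca from -0.2865 (without replicate 2) to 1.8399. The causes were not tested. With library size in place of TMM, the median log2 fold change of all genes in CT2A against naïve brain was -0.235 in place of -0.039.

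Replicate numbers are shared by name only. Of 30 pairs of libraries with the same number in different groups, 1 had deviations correlated over 0.1 (range -0.331 to 0.262), and 3 of 15 libraries correlated best with their own number. With the replicate number as a block, the counts against naïve brain were 32 for CT2A, 27 for GL261, 23 for 005 and 33 for Mut3, with 1, 3, 0, 0, 4 and 7 genes in the pairs of lines in the order above, 7 for CT2A and Mut3 against GL261 and 005, 6 for Mut3 against the others and 32 among the 5 groups.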
